A study of Mus musculus with 2 samples.

Results

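Droplets in which transcripts of T cells and of class II-rich antigen-presenting cells were read together numbered 431 of the 19019 thymic droplets with a single genotype hashtag, in a pool of 28926 droplets. A droplet was counted when it held at least 3 raw UMIs (unique molecular identifiers, each standing for 1 captured transcript) of Cd3d, Cd3e and Cd3g summed, when Cd74, H2-Aa and H2-Ab1 together made up at least 3% of its gene UMIs, and when Cd79a and Ms4a1, markers of B cells, gave at most 1 UMI. Cd3d, Cd3e and Cd3g encode CD3 chains of the T cell receptor complex, and H2-Aa and H2-Ab1 encode the chains of a class II molecule, with Cd74 the invariant chain that goes with them. In mm10 the CD3 genes are neighbours on chromosome 9, at 44969572 to 44980431 (Cd3g), 44981786 to 44987339 (Cd3d) and 44998740 to 45009627 (Cd3e). H2-Ab1 (34257689 to 34269419) and H2-Aa (34282744 to 34287823) are neighbours on chromosome 17. Such a droplet may hold a pair of separate cells, cells that were attached to each other, or a cell that had taken up material of another, and these cannot be told apart in the counts. They are called joined droplets here, and the word says only that both sets of transcripts share a barcode.

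In the thymus, dendritic cells and macrophages show self peptides on class II molecules to developing T cells. Cortical thymocytes rearrange their receptor genes with the Rag recombinase, those that receive a receptor signal are selected, and strongly self-reactive cells are deleted or diverted into the regulatory lineage after meeting a presenting cell. Type 1 conventional dendritic cells (cDC1) carry Xcr1, type 2 (cDC2) carry Sirpa, and an activated form of either expresses Fscn1 and Ccl22.

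The pool held thymus cells of 7-week-old wild-type B6 mice (WT) and of Mgl2DTR_eGFP mice (Mgl2DTR), in which the diphtheria toxin receptor is tied to Mgl2, a lectin gene of cDC2, so that cells using the gene become sensitive to the toxin. The Mgl2DTR mice received 500 ng of diphtheria toxin, with a time of 48 h, and the labels do not say whether the WT mice were given toxin. In both genotypes the thymus was digested with collagenase D, cells bearing CD90.2 (Thy1) were removed with magnets, and live cells were sorted with antibodies to CD11c and CD11b, so T cells were selected against before the droplets were made. Each genotype had 1 hashtag in 1 pool, and no animals are named. Intervals below are therefore 95% intervals that cover counting error only (Clopper-Pearson for shares, exact Poisson for counts and their ratios), and no difference between genotypes has a replicate check.

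Genotype came from the hashtag, an antibody-borne 15-base barcode read in a library of its own. The tags are shown because they alone separate the genotypes, and the capitals mark the whole barcode. An additional tag was in the same pool, and the deposited tables do not name it alike.
B6WT: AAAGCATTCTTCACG
Mgl2DTR: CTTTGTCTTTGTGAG
uncategorized: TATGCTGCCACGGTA
The WT and Mgl2DTR tags differed at 12 of 15 positions.

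Joined droplets made up a smaller share of the Mgl2DTR suspension than of the WT suspension. There were 392 among 11586 WT droplets, 3.38% (3.06 to 3.73), and 39 among 7433 Mgl2DTR droplets, 0.525% (0.373 to 0.717), a ratio of 0.155 (0.109 to 0.216). Both kinds of droplet they resemble were also less frequent in the Mgl2DTR suspension. Class II-rich droplets with no CD3 UMI (T-free) were 26.9% of WT and 19.2% of Mgl2DTR droplets, a ratio of 0.714 (0.670 to 0.760). Droplets with at least 3 CD3 UMIs and under 0.5% class II UMIs (T droplets) were 17.3% and 8.17%, a ratio of 0.472 (0.430 to 0.517). Among class II-rich droplets, joined and T-free, the joined were 11.2% in WT and 2.66% in Mgl2DTR, a ratio of 0.238 (0.167 to 0.331). Among joined and T droplets, the joined were 16.3% and 6.04%, a ratio of 0.369 (0.259 to 0.514). Of all droplets with at least 3 CD3 UMIs and at most 1 B cell UMI, the joined were 13.1% and 5.23%, a ratio of 0.399 (0.280 to 0.556).

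Carrying T transcripts was not limited to class II-rich droplets. Of droplets under the class II limit that were called plasmacytoid dendritic cells (pDC) by markers, 8.54% (7.01 to 10.3) in WT and 2.59% (1.72 to 3.72) in Mgl2DTR held at least 3 CD3 UMIs. Of droplets called B cells, 10.2% (5.82 to 16.3), 15 of 147, and 6.42% (3.55 to 10.5), 14 of 218, did. Neutrophil-called droplets stood highest in WT, at 24.7% (21.2 to 28.4), 141 of 572, against 4.30% (3.18 to 5.68) in Mgl2DTR. Monocyte-called droplets gave 11.1% (6.72 to 17.0) and 1.99% (0.957 to 3.63), and macrophage-called droplets 7.86% (4.72 to 12.1) and 5.43% (2.84 to 9.29). Over all droplets at or above the class II limit, whatever their CD3 count, the shares were 10.0% (9.09 to 11.0) in WT and 2.41% (1.72 to 3.27) in Mgl2DTR. B cells do not transcribe the CD3 genes, and how T transcripts came into B-called droplets was not tested. Taken as a whole, the class II-rich share was no higher than the B-called share in either genotype. Median gene UMIs were 3841.5 in WT neutrophil-called, 6383 in WT pDC-like, 8988 in WT B-like and 13637 in WT class II-rich droplets. The share was also lower in Mgl2DTR, without overlap of the intervals, in pDC-like, neutrophil-called and monocyte-called droplets. Of the neutrophil markers, S100a8, S100a9 and Camp were also read in T droplets, whose WT median was 3456.5 gene UMIs. Whether the neutrophil-called droplets with CD3 UMIs held a neutrophil was not tested.

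The CD3 counts of class II-rich droplets had a broad upper part. At 0, 1, 2, 3, 4, 5 and 6 CD3 UMIs there were 3116, 363, 44, 25, 19, 22 and 35 WT droplets, and 1427, 149, 6, 3, 1, 2 and 5 Mgl2DTR droplets. The numbers were lowest at 4 UMIs and higher again at 6. The class II limit had no such gap beside it. With at least 3 CD3 UMIs, 136 WT and 17 Mgl2DTR droplets had 2.5 to 3% class II UMIs, just outside, and 117 and 14 had 3 to 3.5%, just inside. T cell UMIs dilute the class II share of a joined droplet, so the limit falls differently on joined than on T-free droplets.

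Taken over all presenting types, the joined droplets held about as much RNA and as many hashtag molecules as the other kinds added together. Gene UMIs of the WT members had their median at 16922.5. The T-free median was 13002 and the T droplet median 3456.5 in that genotype, which add to 16458.5. In Mgl2DTR the members' median was 16645 and the sum of the other medians was 17010. The hashtags, which do not depend on transcription, gave like figures. For the droplet's own hashtag, the WT member median of 2700.5 UMIs stood beside a sum of 2676.5, and the Mgl2DTR median of 2912 beside 2792. Within marker-called types, given below, most WT joined medians of gene UMIs were above the sum. They were 15795 against 13159.5 in activated DC-like, 26581 against 22914.5 in pDC-like and 20380 against 18335.5 in cDC1-like droplets. In cDC2-like droplets they were 15583 against 14820.5, and in macrophage-like ones 15195 against 15496.5. The Mgl2DTR cDC1-like median was 17526 against 17971.

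**Figure D1:**
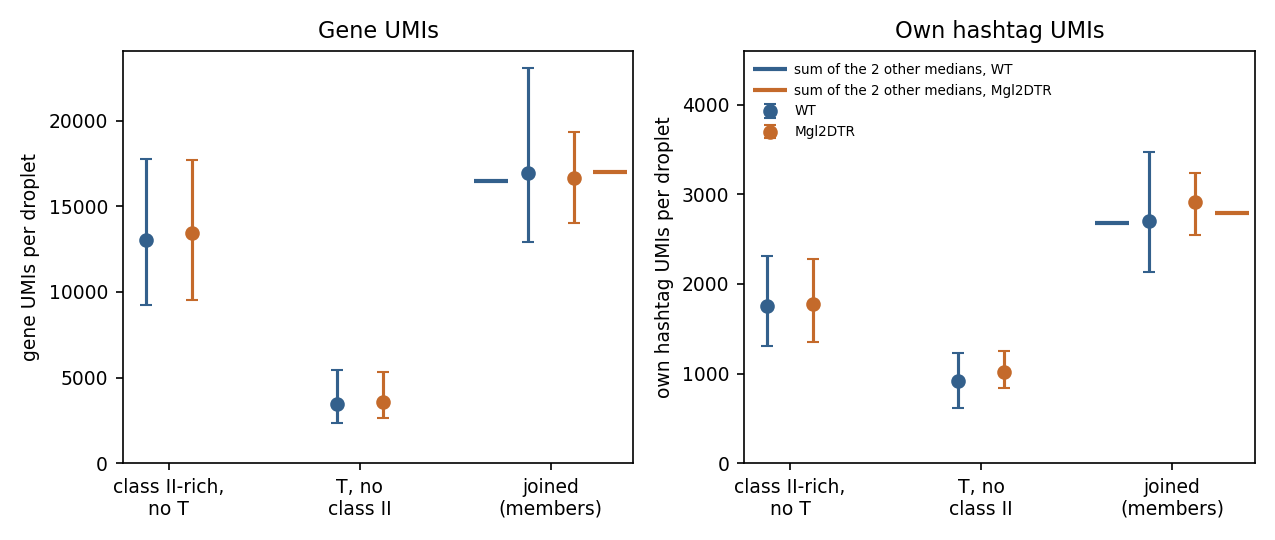
Gene UMIs (left) and UMIs of the droplet's own hashtag (right) per droplet, as medians with quartiles over droplets, in WT and Mgl2DTR. Short bars beside the joined droplets mark the sum of the medians of the other kinds: 16458.5 gene UMIs in WT, against a joined median of 16922.5.

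On average a joined droplet carried roughly the T cell transcripts of a T droplet. Summed over 17 T lineage genes that the rule did not use, the mean was 35.0 UMIs per joined droplet, 35.5 per T droplet and 0.587 per T-free droplet. Quartiles over joined droplets were 22 and 44.5 UMIs. By genotype, the joined and T droplet means were 35.4 and 37.5 in WT, and 31.0 and 29.1 in Mgl2DTR. Trac, the constant part of the receptor alpha chain, gave 2.24 UMIs per joined and 2.23 per T droplet, and Trbc2, of the beta chain, gave 10.8 and 10.4. Lck, the kinase that starts receptor signalling, gave 1.33 and 1.43. Of the 17 genes, 6 had a higher mean in joined droplets and 11 a lower one, from 55.9% of the T droplet mean for Thy1 to 152% for Cd5. Thy1 encodes CD90, the antigen used for depletion. The rule requires CD3 UMIs of both kinds of droplet, so a high T lineage level was set by the choice, and only the closeness of the amounts is a description.

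Both the joined and the T-free droplets were chosen for at least 3% class II UMIs, so a high level of class II genes was set by the choice. The 8 class II genes outside the rule gave 192 UMIs per joined and 151 per T-free droplet. H2-Eb1 gave 147 and 112 UMIs, and the class II regulator Ciita gave 2.93 and 2.52. The 9 genes of thymic epithelium gave 0.406 UMIs per joined droplet against 0.218 per T-free droplet, and 6 B cell genes outside the rule gave 0.248 against 0.135. No member was called an epithelial cell or a B cell. Neutrophil genes were read in all kinds, with 8.46 UMIs per joined droplet (median 4), 10.2 per T-free (median 3) and 26.2 per T droplet (median 2), and 9 members were neutrophil-like.

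To ask which presenting cell was joined, each droplet was given the type of the marker list with the largest share of its genes detected, with at least 3 needed, and 410 of 431 members received a call. The names carry "-like" because they rest on markers alone. cDC1-like droplets were the most frequent, 159, followed by 112 activated DC-like, 95 cDC2-like, 21 macrophage-like, 12 pDC-like, 9 neutrophil-like and 2 monocyte-like droplets. Members called cDC1 had a median of 7 of the 8 cDC1 markers and 0 of the 7 cDC2 markers. Members called cDC2 had 4 of 7 cDC2 and 1 of 8 cDC1 markers. Members called activated DC had 7 of 9 of their own list. The pDC-like members had 7 of 7 pDC markers, but also a median of 3.5 cDC1 and 3.5 cDC2 markers.

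Compared with T-free droplets, the joined ones had fewer cDC1-like and more activated and cDC2-like droplets. Of called WT droplets, cDC1-like were 37.5% (32.5 to 42.6) of the joined and 55.4% (53.6 to 57.3) of the T-free. Activated DC-like were 28.0% (23.5 to 32.9) and 13.9% (12.7 to 15.2). cDC2-like were 24% (19.7 to 28.7) and 15.0% (13.7 to 16.3). In Mgl2DTR, with 39 called members, cDC1-like were 51.3% (34.8 to 67.6) of the joined and 73.7% (71.2 to 76.0) of the T-free, cDC2-like were 15.4% (5.86 to 30.5) and 5.55% (4.39 to 6.90), and activated DC-like were 20.5% (9.30 to 36.5) and 10.8% (9.19 to 12.6). In both genotypes the cDC1-like share was lower and the other shares higher in joined droplets, although in Mgl2DTR the intervals of the activated DC-like and of the cDC2-like shares overlap.

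Put as the share of each type that carried T transcripts, WT activated DC-like droplets stood highest at 20.6% (17.1 to 24.3), 104 of 506, with cDC2-like at 17.0% (13.9 to 20.6), 89 of 522. These intervals overlap, so the order of these types is not set. WT pDC-like droplets followed at 12.2% (6.49 to 20.4), neutrophil-like at 12.1% (5.38 to 22.5), 8 of 66, cDC1-like at 7.98% (6.75 to 9.36), monocyte-like at 6.67% (0.818 to 22.1), 2 of 30, and macrophage-like at 5.70% (3.36 to 8.98). The cDC1-like share lay below the cDC2-like and activated shares without overlap. Neither the cDC2-like nor the activated share was above the 24.7% of neutrophil-called WT droplets under the class II limit. That neutrophil call rests partly on markers also read in T droplets. With the class II limit lowered to 2.4% for droplets with T transcripts, an alternative added after the data were seen to allow for dilution, the WT shares were 11.6% for cDC1-like, 19.8% for cDC2-like and 26.8% for activated DC-like droplets, in the same order.

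In Mgl2DTR the share carrying T transcripts was 1.97% (1.21 to 3.02) of cDC1-like, 20 of 1016, which is 0.247 times the WT share (0.146 to 0.396). Activated DC-like droplets gave 5.19% (2.27 to 9.98), 8 of 154, a ratio of 0.253 (0.106 to 0.517). cDC2-like droplets gave 7.41% (2.77 to 15.4), 6 of 81, a ratio of 0.434 (0.155 to 0.984). Macrophage-like droplets gave 6.15% (1.70 to 15.0), 4 of 65, a ratio of 1.08 (0.264 to 3.31). None of 43 pDC-like droplets carried T transcripts, which allows a share of up to 8.22%. The lower share in Mgl2DTR was thus present in cDC1-like and activated DC-like droplets and was not limited to cDC2-like droplets, the type that carries most Mgl2. The intervals of these ratios overlap one another, and the difference between types was not tested.

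**Figure D2:**
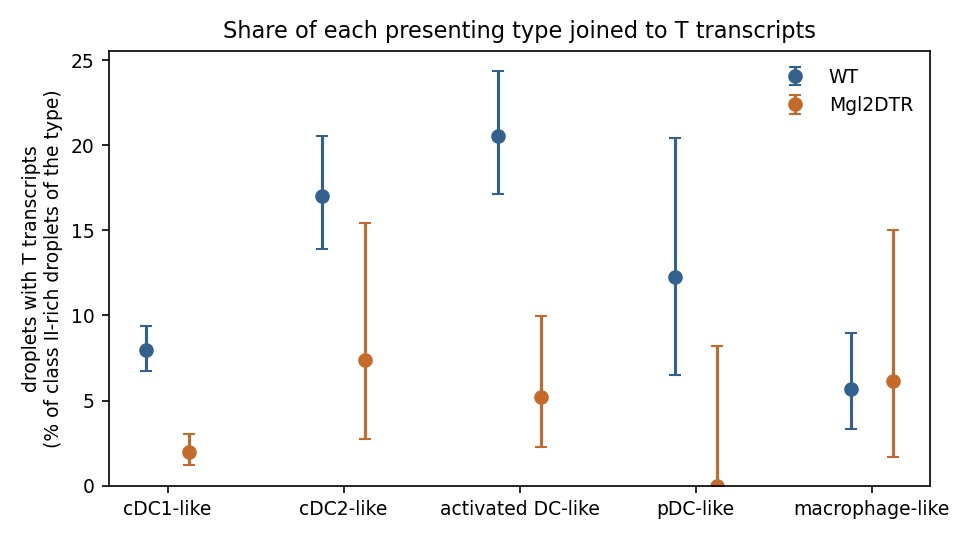
Percent of class II-rich droplets of each marker-called type that carried T transcripts, in WT and Mgl2DTR, with Clopper-Pearson intervals. WT activated DC-like (20.6%) and cDC2-like (17.0%) droplets lie above cDC1-like droplets (7.98%), and the Mgl2DTR values lie lower in each type but the macrophage-like.

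The defining genes of a type helped to make its call, so their presence in called droplets was set by it, and their levels are given as a description. In cDC1-like droplets the chemokine receptor gene Xcr1 was at 388 CPM (UMIs scaled to an equal total of gene UMIs) when joined and 562 CPM when T-free. In cDC2-like droplets the lectin gene Cd209a was at 544 and 627 CPM. In activated DC-like droplets the actin-bundling gene Fscn1 was at 1308 and 1364 CPM. Genes of other presenting types were higher in joined than in T-free cDC1-like droplets of WT. Mgl2 stood there at 69.1 CPM (60.1 to 79.1) against 20.1 (18.4 to 21.9), Il4i1 at 107 (96.0 to 119) against 29.4 (27.3 to 31.6), and Fscn1 at 70.1 (61.0 to 80.1) against 27.4 (25.4 to 29.5). In Mgl2DTR the 20 joined cDC1-like droplets held 1 Mgl2 UMI, 2.79 CPM (0.0707 to 15.6) against 4.70 T-free. Genes of the cDC2 list did not all go that way in these droplets. Cd209d was higher, at 69.8 CPM (45.2 to 103) on 25 UMIs against 3.77 T-free. Cd209a was at 13.96 CPM (4.53 to 32.6) on 5 UMIs against 2.51 T-free. Clec10a was lower, at 2.79 CPM (0.0707 to 15.6) on 1 UMI against 6.75 T-free. Il4i1 was at 75.4 against 13.4 CPM and Fscn1 at 36.3 against 11.5 CPM, on 27 and 13 UMIs. Whether some of these droplets held more than 1 presenting cell was not tested.

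To ask which thymocyte was joined, the same rule was applied to lists of T cell stages, and 318 members were called as a Rag-stage cortical, newly selected or mature single-positive thymocyte. Mature-like droplets numbered 149, newly selected-like 124 and Rag-stage-like 45. A further 3 were regulatory T-like, 1 was innate lymphoid-like, none was innate-like or gamma-delta T-like, and 109 had no call. The call rested on the minimum of 3 markers in 105 members, so single droplets are weakly staged.

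Newly selected thymocytes made up more of the joined than of the T droplets. In WT they were 40.2% (34.5 to 46.1) of 291 staged joined droplets and 19.0% (17.0 to 21.1) of 1484 staged T droplets. Rag-stage-like droplets were 15.1% (11.2 to 19.8) and 24.4% (22.2 to 26.7), and mature-like droplets were 44.7% (38.9 to 50.6) and 56.6% (54.0 to 59.1). In Mgl2DTR newly selected-like droplets were 25.9% (11.1 to 46.3) of 27 joined and 7.28% (5.07 to 10.1) of 453 T droplets. Mature-like droplets were 70.4% (49.8 to 86.2) of the joined and 86.3% (82.8 to 89.3) of the T droplets, and 1 joined droplet was Rag-stage-like. Some of these markers are also read in T-free class II-rich droplets. Cd69, an early activation gene on the newly selected list, gave 0.493 UMIs per T-free droplet. Without the 5 stage markers found in at least 5% of T-free droplets (Cd69, Klre1, Mns1, Ms4a4b and Tnfrsf18), WT newly selected-like droplets were 37.1% of the joined and 19.9% of the T droplets.

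**Figure D3:**
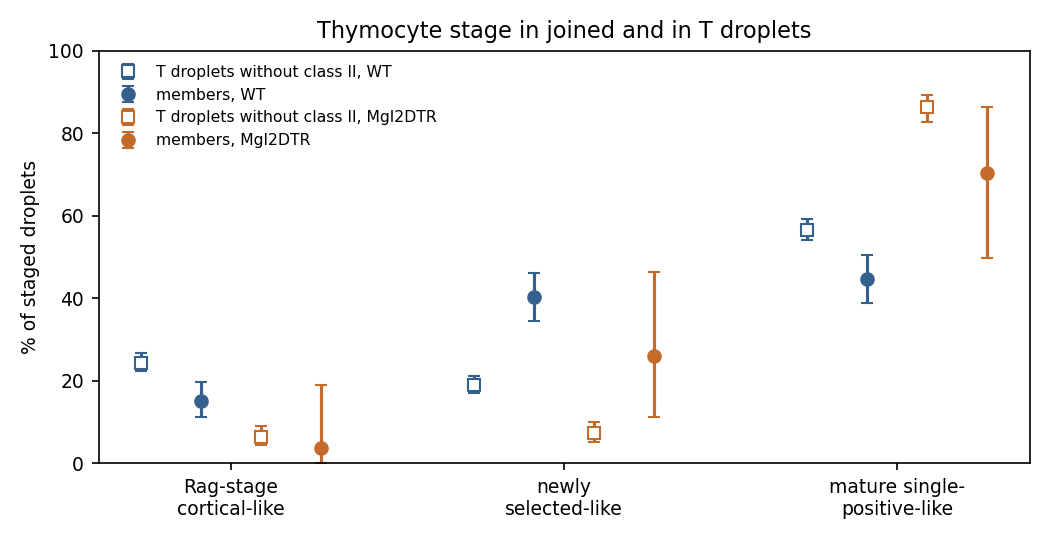
Percent of staged droplets called at each thymocyte stage, in T droplets without class II (open squares) and joined droplets (filled circles), with Clopper-Pearson intervals. In WT the newly selected-like share is 40.2% of joined and 19.0% of T droplets.

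The T droplets themselves differed between genotypes by stage. Rag-stage-like T droplets were 3.12% of WT and 0.390% of Mgl2DTR droplets, a ratio of 0.125 (0.0824 to 0.182), and newly selected-like ones were 2.43% and 0.444%, a ratio of 0.182 (0.123 to 0.262). Mature-like T droplets were 7.25% and 5.26%, a ratio of 0.726 (0.642 to 0.819). The stages of the joined droplets therefore have to be read beside a T cell background that is mostly mature-like in Mgl2DTR.

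The stage lists are given gene by gene below as amounts per droplet. The calls were made from these genes, so this is the same information and no separate support for the calls. All 6 newly selected genes had a higher mean in joined than in T droplets, from 137% of the T droplet mean for Tox, a nuclear factor of selected thymocytes, to 292% for Tox2. Itm2a, a membrane protein gene induced at selection, gave 2.19 UMIs per joined and 1.35 per T droplet, and Cd5, which is set by the strength of receptor signalling, gave 1.63 and 1.07. Of the 7 Rag-stage genes, 6 had a lower mean. Rag1, of the recombinase, was at 62.9% of the T droplet mean and Dntt, which adds bases at receptor joins, at 43.8%, while Mns1, read in T-free droplets too, was at 106%. Of the 6 mature genes, 5 had a lower mean, with S1pr1, the receptor used to leave the thymus, at 72.9%. Nkg7, of cytotoxic lineage cells, was at 51.4% and the CD8 beta chain gene Cd8b1 at 116%, but Cd8b1 was also read at 0.404 UMIs per T-free droplet.

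**Figure D4:**
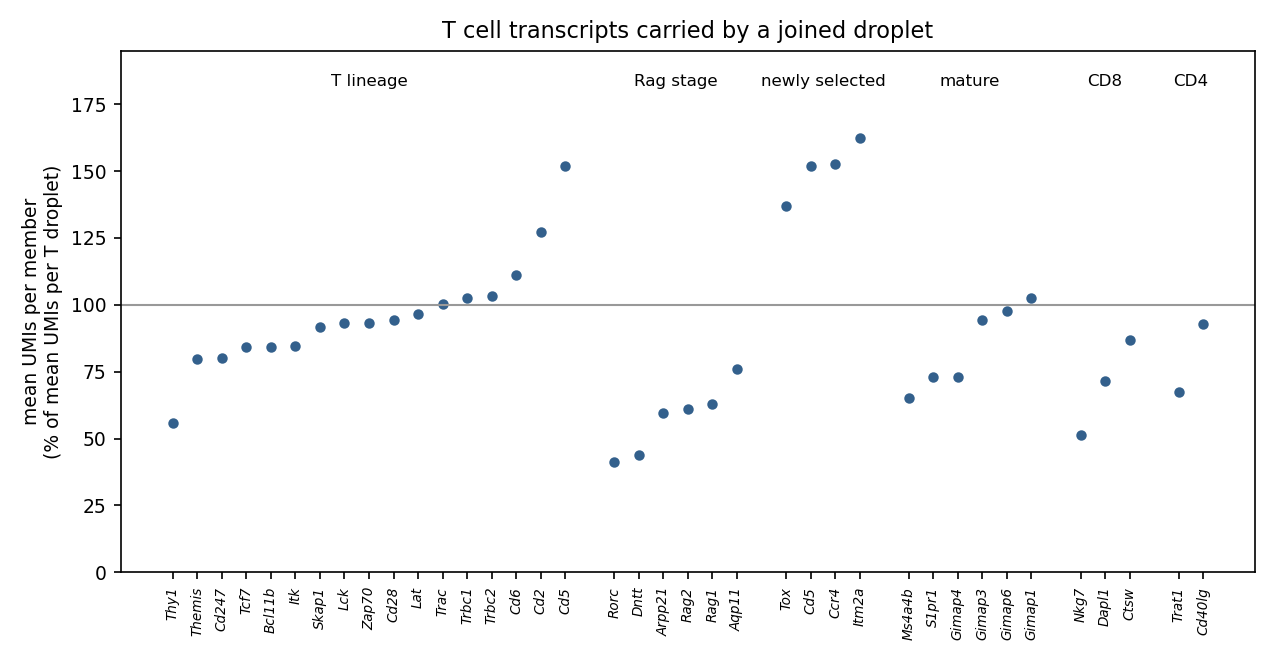
Mean UMIs per joined droplet as a percent of the mean per T droplet, for T cell genes with at least 50 UMIs in T droplets and a mean there over 5 times that of T-free class II-rich droplets, grouped by list. The newly selected genes lie from 137% upward and the Rag-stage genes from 76% downward, around the line at 100%.

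Each main presenting type was found with each main stage. The cDC1-like members included 54 with a mature-like, 45 with a newly selected-like and 13 with a Rag-stage-like thymocyte. The cDC2-like members included 42, 24 and 6, and the activated DC-like members 31, 39 and 16. Mature-like calls were thus 47.8% of staged cDC1-like, 58.3% of staged cDC2-like and 34.8% of staged activated DC-like members. Newly selected-like calls were 39.8%, 33.3% and 43.8%. In Mgl2DTR, 12 of the 20 cDC1-like members were with a mature-like thymocyte.

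A fit of each member as a mixture of 1 presenting-cell profile and 1 T cell profile, both taken from droplets of the other kinds, gave the same presenting type as the markers in 349 of 399 members (87.5%) and the same stage in 244 of 318 (76.7%). The T cell profile took a median of 18% of the UMIs in WT members and 20% in Mgl2DTR members. By this fit cDC2 was as frequent as cDC1 in WT, at 34.9% (30.2 to 39.9) and 31.9% (27.3 to 36.8), with activated DC at 24.7%. Newly selected was the most frequent WT stage at 43.4% (38.4 to 48.4).

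Most genes of the joined droplets stood near the counts of the fitted mixtures. The fit was made to these same counts, so a value near 1 was partly set by it and is a description. Over 8500 genes the observed count divided by the count of the fitted mixtures had quartiles of 0.915 and 1.05, and 0.306% of genes stood at 1.5 or more. Of 8 contact molecules of the presenting cell, 1 stood at 1.5 or more and 3 below 1. Cd70, a ligand of activated dendritic cells, was at 1.80, while Cd80 at 0.837, Pdcd1lg2 at 0.908 and Cd274 at 0.973 were below the mixture. Of 8 contact molecules of the T cell, 2 stood at 1.5 or more, the Cd70 receptor gene Cd27 at 1.57 and the adhesion receptor gene Cd2 at 1.67, and 1 was below 1, Itgal at 0.872. Of 4 newly selected genes, Cd5 at 1.67 and Tox at 1.5 reached that size and none was below 1, with a median of 1.47. Genes of other T cell lists were above the mixture too. Of 6 mature genes 1 was below 1 and 0 reached 1.5, with a median of 1.27. Of 3 regulatory T genes 0 were below 1 and 1 reached 1.5, Tnfrsf18 at 1.56, with a median of 1.499. Of 17 T lineage genes 16 were above 1, with a median of 1.26 and Trac and Trbc2 at 1.38 and 1.37, and the members had been chosen for CD3 UMIs. Of 11 genes of receptor signalling, 1 stood at 1.5 or more, Cd5 again, and 3 below 1, Egr1 at 0.963, Egr2 at 0.840 and Egr3 at 0.849, with Nr4a1 at 1.12 and Nr4a3 at 1.02. Of 4 neutrophil genes 3 were below 1 and 1 stood at 1.5 or more, Retnlg at 1.53 (1.24 to 1.85). S100a8 and Camp stood at 0.410 and 0.188, and were read in T droplets at a mean of 11.1 and 2.41 UMIs. This comparison was added, and the genes named in it chosen, after the data were seen.

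Set beside the other kinds directly, 1.28% of 8449 genes had a CPM in joined droplets at least 1.5 times that of the higher of T-free and T droplets. The 8 with the largest excess among genes with at least 200 UMIs in members were Il12b, Eno3, Anxa3, Lad1, Fxyd2, Cd209e, Dab2 and Gfra2. Il12b, the cytokine chain made by activated dendritic cells, was at 288 CPM in joined, 113 in T-free and 37.7 in T droplets. Within types, joined over T-free, Il12b was at 1.27 (1.21 to 1.34) in activated DC-like and 0.947 (0.788 to 1.13) in cDC1-like droplets. In cDC2-like droplets it was at 2.55 (0.656 to 8.83), on only 5 joined and 8 T-free UMIs, an interval that includes 1. The other genes had excesses of 1.95 to 2.13 times over all droplets. Within activated DC-like droplets, joined over T-free, Eno3 was at 0.914, Anxa3 at 0.896, Lad1 at 0.917 and Fxyd2 at 0.924. Within cDC2-like droplets Cd209e was at 0.95, Gfra2 at 1.02 and Dab2 at 1.17. All 7 were above 2 times within cDC1-like droplets, from 2.33 for Fxyd2 to 4.29 for Gfra2. The activated DC list, of which Il12b is no part, was richer in joined droplets, at 32.9 UMIs per joined and 11.2 per T-free droplet, as were the 7 cDC2 genes at 10.9 and 4.89. The cDC1 genes were at 14.8 and 19.9 UMIs.

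Between genotypes, Mgl2, Cd209d, Rag1 and Tox were lower in Mgl2DTR members, and C1qb, Nkg7 and Nr4a3 were higher. In most lists the larger number of genes passed in neither direction: 2 of 6 measured cDC2 genes were lower and 1 higher, 2 of 5 Rag-stage and 1 of 4 newly selected genes were lower, and 2 of 6 mature genes were higher. A gene counted as different when its CPM ratio was at least 1.5 either way, its interval lay beyond 1 and it had at least 50 UMIs. By this size rule 320 of 8449 genes (3.79%) were higher and 299 (3.54%) lower, 7.33% in all. With 39 Mgl2DTR members a single droplet can carry a gene's ratio, and its part is given for some of the genes. The median log2 ratio over all genes was -0.04.

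Mgl2 stood at 201 CPM in all WT members and at 91.1 in all Mgl2DTR members, a ratio of 0.454 (0.345 to 0.586). Within cDC2-like members the 89 WT droplets read 664 CPM (622 to 708), and the 6 Mgl2DTR droplets read 630 (480 to 813), an interval that includes the WT value. Among T-free cDC2-like droplets the levels were 784 and 338 CPM. One droplet held 44.3% of the Mgl2 UMIs of all Mgl2DTR members. Of the 6 cDC2 genes measured, 2 were lower, Cd209d at 0.253, though at 1.14 within cDC1-like members, and Cd209a at 0.663, and 1 was higher, Itgam at 2.86, or 1.46 without its richest Mgl2DTR droplet. Of the 8 cDC1 genes, 2 were higher, Xcr1 at 1.5 (1.28 to 1.75) and the adhesion gene Cadm1 at 1.68 (1.24 to 2.23), and none was lower. Without the richest droplet of each they were at 1.38 and 1.45, under the limit of 1.5.

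Of the 9 activated DC genes, 3 were lower and 1 was higher. Fscn1 read 397 CPM in WT members against 199 in Mgl2DTR members, Apol7c at 193 and 22.4, and the chemokine gene Ccl17 at 148 and 62.7, of which 78.6% of the Mgl2DTR UMIs came from 1 droplet. Ccl22 was at 445 and 706 CPM, a ratio of 1.59 that became 1.27 without its richest Mgl2DTR droplet and 0.389 within cDC1-like members. Macrophage genes of complement were higher, with C1qa at 1.97, C1qb at 2.5 and C1qc at 1.82, which made 3 of 5 measured genes of that list, with none lower. One droplet gave 41.6% of the Mgl2DTR C1qa UMIs, and without the richest droplet C1qa was at 1.18 and C1qc at 1.26. Within cDC1-like members all of these reversed, with C1qa at 0.0612, C1qb at 0.0708 and C1qc at 0.172. Of the 7 pDC genes 4 were lower, in a group with no pDC-like member.

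On the T cell side, Rag1 read 24.2 CPM in WT against 5.97 in Mgl2DTR members, a ratio of 0.247 (0.0665 to 0.643), and Tox at 66.3 and 31.4 CPM, a ratio of 0.473 (0.290 to 0.732). Of the 6 mature genes 2 were higher, S1pr1 at 1.61 (1.06 to 2.38) and Gimap3 at 1.66 (1.15 to 2.34), which became 1.27 and 1.44 without the richest Mgl2DTR droplet of each. Of 3 measured CD8 lineage genes 2 were higher, Nkg7 at 2.83 (2.04 to 3.86) and Ctsw at 2.06 (1.40 to 2.98), while Cd8b1 passed in neither direction. Gzma, a cytotoxic granule gene and the 1 measured gene of the NK and innate lymphoid list, was lower, at a log2 ratio of -2.17. Of the 17 T lineage genes 1 was lower, Themis at 0.479, a signalling regulator of selection, and none was higher. Among staged T droplets, the Mgl2DTR suspension likewise had a smaller Rag-stage-like share, 6.40% against 24.4% in WT. The mature-like share of staged T droplets was larger, 86.3% against 56.6%. Of 11 cell cycle genes 3 were lower, Mki67 at 0.548, Cdk1 at 0.583 and Ccnb1 at 0.231.

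Of 11 measured genes of receptor signalling and deletion 5 were higher and none lower. Nr4a1 read 88.0 CPM in WT against 142 in Mgl2DTR members, Nr4a3 at 52.4 and 108, Egr1 at 98.0 and 169, Nfkbid at 41.2 and 77.6 and Gadd45b at 233 and 408. With members limited to at least 5 CD3 UMIs, Egr1 at 1.24, Nfkbid at 1.40 and Gadd45b at 1.11 no longer passed, and without the droplet richest in each gene Egr1 and Gadd45b did not. Most of these genes are read in dendritic cells too, with Egr1 at 1.77 UMIs per T-free and 0.246 per T droplet. The early response and handling list moved the same way, with 5 of 10 genes higher, among them Atf3 at 1.81, Ier2 at 1.75 and Junb at 1.59, and 1 lower, Hspa1b at 0.392. The part of tissue handling in these values was not tested.

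Of 8 measured contact molecules of the presenting cell, 3 were higher, Cd80 at 2.08, Cd40 at 1.60 and Cd70 at 2.48, and 1 was lower, Pdcd1lg2 at 0.161. One droplet held 64.4% of the Mgl2DTR Cd70 UMIs, and without it the ratio was 0.902. With the richest droplet of each left out, Cd80 was at 1.06 and Cd40 at 1.18, and within cDC1-like members Cd40 was at 0.761. Of the contact molecules of the T cell 2 of 8 were higher, Icos at 2.12 and Cd226 at 2.28. The mitochondrial transcripts showed no gene either way, and neither did the 8 class II genes outside the rule.

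Outside these lists, the 8 largest ratios among genes with at least 200 UMIs included those of Cxcl2 (20.5), Tnfaip2 (3.70), Il1b (3.45), Rasgef1b (3.17), Tgfbi (3.11), Vps37b (2.62) and Ccrl2 (2.61). Cxcl2, a chemokine for neutrophils, had UMIs in 6 Mgl2DTR members and 50.2% of them in 1. Il1b, an inflammatory cytokine, had UMIs in 19 of the 39. For Ccrl2, 1 droplet held 39.6% of the Mgl2DTR UMIs, and without it the ratio was 1.63. Within cDC1-like members Ccrl2 was at 1.71 and no longer passed. The 8 smallest were of Cd209e (0.0327), Mmp12 (0.0551), Iglc3 (0.101), Ear2 (0.196), Cenpf (0.257), Fxyd2 (0.264), Ctsl (0.327) and Sct (0.341). Cd209e, a lectin gene, and Mmp12, a matrix protease gene, each had 1 UMI in the Mgl2DTR members, against 336 and 199 UMIs in WT members.

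**Figure D5:**
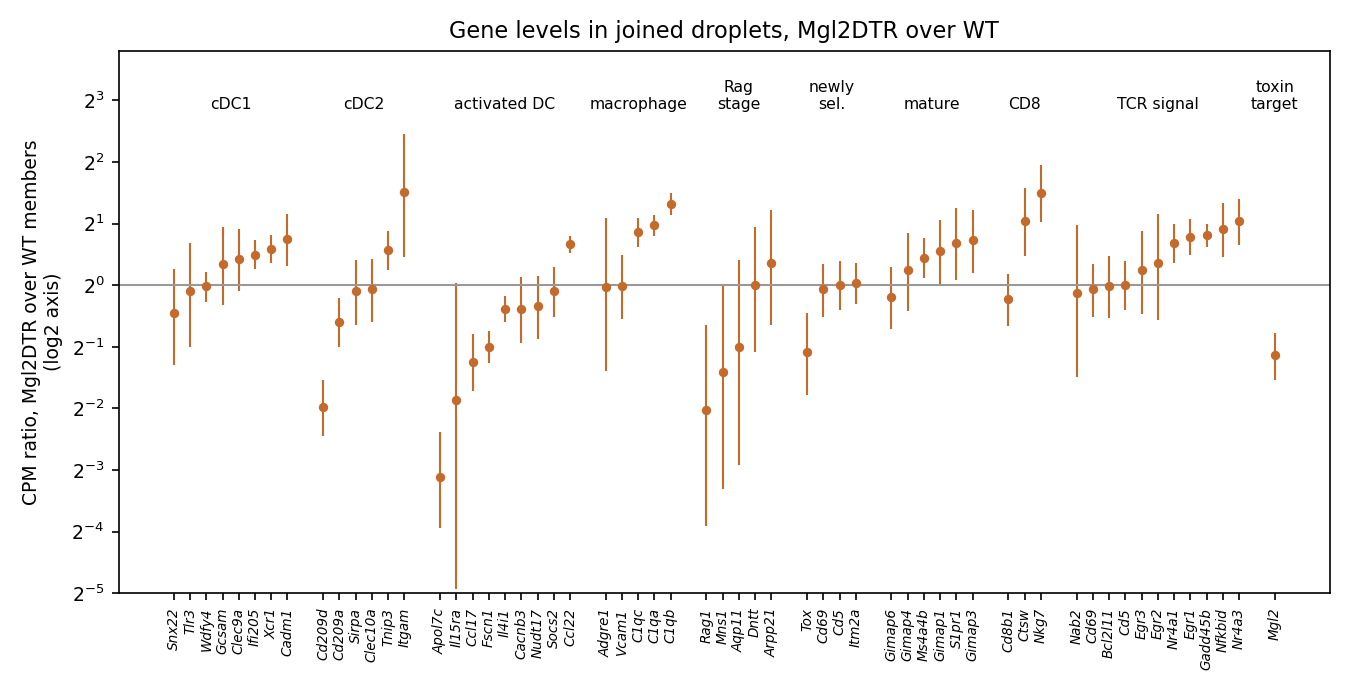
CPM ratio of Mgl2DTR over WT joined droplets (log2 axis) for genes with at least 50 UMIs in members, grouped by list, with exact intervals. Cd209d, Apol7c, Rag1 and Mgl2 lie below 1, and C1qb, Nkg7 and Nr4a3 lie above 1.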

How the data were processed

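Droplets of 1 pool were read with the Chromium 3′ v3 kit, with a hashtag library beside the gene library, per the labels. The deposited gene and hashtag tables hold raw counts, whole UMIs per droplet, which the authors made using Cell Ranger 6.0.0, Seurat 4.0.4 and the mm10 build, per the submitters' processing notes. Which annotation was counted over is not stated in them. The tables hold 20451 genes, the 2 gene tables shared 0 barcodes, and gene sums equalled the deposited totals in all 28926 droplets. Of the deposited annotation only the hashtag calls and totals were used, and 8 columns were not used. Doublets were not removed, since they are the subject. Droplets with a pair of hashtags or none entered no comparison.

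UMIs were summed over droplets and divided by their total to give CPM (Python 3.11.15, numpy 2.4.6, pandas 2.3.3, scipy 1.17.1, figures with matplotlib 3.10.9). Each genotype being 1 suspension, no test was possible. Genes were named from the fixed lists, and outside them as the 8 largest and 8 smallest ratios and the 8 largest excesses with at least 200 UMIs. One gene that this rule names is not reported here. The mixture fit used 5 presenting and 3 stage profiles over 11150 genes. The calling steps were run on simulated data. For the size calls those data held counting error only and no variation between droplets, unlike the members. The members and lists were chosen with earlier results of these data known. Alternatives were thresholds, thinning to 3000 UMIs, other scalings, the mixture fit and marker subsets.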

Additional observations from a re-analysis of the deposited data

Results flagged for a closer look

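Droplets with a pair of hashtags were in no comparison, and 565 of 9829 of them, 5.75% (5.30 to 6.23), met the same rule on gene UMIs. There were 231 of 4755 (4.86%) with the WT and Mgl2DTR tags, 208 of 2312 (9%) with the WT and additional tags and 126 of 2762 (4.56%) with the Mgl2DTR and additional tags, and none of the 78 droplets without a hashtag. Their median gene UMIs were 23785, 24114 and 24123.5. With the WT and Mgl2DTR tags, 55.0% were cDC1-like, 7.79% cDC2-like and 17.3% activated DC-like, beside 35.5%, 22.7% and 26.5% of the 392 WT joined droplets and 51.3%, 15.4% and 20.5% of the 39 Mgl2DTR joined droplets. Of 176 staged droplets with both genotype tags, 25% were newly selected-like, beside 40.2% in WT and 25.9% in Mgl2DTR joined droplets. These droplets hold cells of both genotypes, and the difference was not tested.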

How the results depend on the processing

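The Mgl2DTR over WT ratio of member shares was below 1 under each of 7 alternatives. It was 0.0779 with class II at 5% or more, on 3 Mgl2DTR droplets. Among called members, cDC1-like droplets were 38.8% and became 32.9% by the mixture fit and 31.8% after thinning to 3000 UMIs, cDC2-like were 23.2% and became 33.2% by the mixture fit, and activated DC-like were 27.3% and became 37.1% after thinning. Among staged members, Rag-stage-like droplets were 14.2% and became 18.8% by the mixture fit and 10.4% after thinning, and mature-like were 46.9% and became 39.4% by the mixture fit. Newly selected-like droplets stayed between 35.8% and 41.8%. Genes higher and lower numbered 320 and 299, and 169 and 164 with a minimum of 200 UMIs, and 194 and 170 in cDC1-like members only, where fewer genes and droplets enter. cDC1-like was the one type with at least 20 members in both genotypes. Of 69 genes followed, 6 reversed within cDC1-like members: C1qa (0.0612), C1qb (0.0708), C1qc (0.172), Ccl22 (0.389), Cd40 (0.761) and Cd209d (1.14). Within those members 15 more no longer passed, among them Junb (1.32), Mki67 (0.840), Cdk1 (0.728) and Themis (0.587), and 29 did. Cd70 reversed to 0.902 without its richest Mgl2DTR droplet, where 16 others no longer passed. That step takes out the largest count and the depth of its droplet, so it tends to lower a ratio. With at least 5 CD3 UMIs 12 genes no longer passed. The cause of the other shifts was not tested. No paired analysis was possible because each genotype is 1 suspension. The 39 Mgl2DTR members limit every genotype comparison.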
